A study of Homo sapiens with 24 samples.

Results

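The chromatin of 8 genes was followed in the established bladder cancer line UMUC1, of human origin: FGFR3, the phosphatase genes DUSP4, DUSP5 and DUSP6, the Sprouty genes SPRY2 and SPRY4, and the transcription factor genes ETV4 and ETV5. The regions described were chosen by position, as every called peak or region that shared at least 1 bp with a window made of the gene body and about 50 kb on each side, on the hg19 build. There were 795 of them among 1483402 regions in 18 lists of chromatin immunoprecipitation sequencing (ChIP-seq). The windows were 104 to 163 kb wide.

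FGFR3 is a receptor tyrosine kinase that is activated by mutation or fusion in many bladder tumours, and it signals through RAS, RAF and MEK to the MAP kinase ERK. ERK signalling induces its own brakes: the DUSP proteins remove phosphate from MAP kinases, and the Sprouty proteins act on the path between receptor and RAF. ETV4 and ETV5 are ETS-family transcription factors that carry the signal to target genes, so transcription of the 7 genes downstream of FGFR3 is often read as a gauge of pathway output. Of the marks measured here, H3K27ac is found at active promoters and enhancers, H3K4me1 at enhancers, active or not, and H3K27me3 in chromatin silenced by Polycomb. UTX, also called KDM6A, removes methyl groups from H3K27 and belongs to the complex of MLL4, a methyltransferase that places H3K4me1.

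The study title pairs loss of UTX with activation of FGFR3 in bladder cancer, and the 3 stable lines differed in the pSIN-puro construct they carried. EV cells carried an empty construct and served as the control. WT cells expressed wild-type UTX, and HEAA cells expressed a UTX mutant that bears H1146A and E1148A. All were UMUC1 cells, and the labels do not say whether a line was 1 clone. UTX, MLL4, H3K4me1 and H3K27me3 had 1 list per line, and H3K27ac had 2 numbered libraries per line. A mark with 1 list per line gives values without a replicate error.

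How deeply each library was sequenced is unknown, and where no peak is listed the signal may still lie under the caller's cutoff. For UTX, EV had 31 peaks, WT 2566 and HEAA 2855, and for MLL4 133, 898 and 1125. H3K27ac lists ran from 37298 to 72700 regions, and in each line the list numbered 1 was longer than the list numbered 2. H3K27ac covered 88.1 and 71.7 Mb in EV libraries 1 and 2, 96.0 and 55.3 Mb in WT, and 111 and 48.3 Mb in HEAA. The labelled cell type was not checked against marker genes, because an hg19 annotation was not used here. Nothing in the labels tells whether libraries 1 and 2 of a line were grown apart, so each p-value below reflects library-to-library spread, possibly technical.

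Promoter sequence is shown for 3 of the genes, chosen after values were seen. The FGFR3 and DUSP6 windows held both UTX and MLL4 peaks, and SPRY4 had the lowest ratio of acetylated length in the UTX lines to EV. Each is the 250 bases upstream of the RefSeq transcript start on GRCh38.p14, 5′ to 3′ on the gene's strand. These positions are on another build than the lists. Capitals mark CGGAA, the core bound by ETS factors such as ETV4 and ETV5, and TGACG, a half-site of the cAMP response element, each on either strand.
FGFR3: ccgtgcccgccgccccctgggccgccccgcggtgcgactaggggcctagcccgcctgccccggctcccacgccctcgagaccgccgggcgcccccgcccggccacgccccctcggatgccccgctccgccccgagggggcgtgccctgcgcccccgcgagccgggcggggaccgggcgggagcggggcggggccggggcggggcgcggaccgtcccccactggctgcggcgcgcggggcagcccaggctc
DUSP6: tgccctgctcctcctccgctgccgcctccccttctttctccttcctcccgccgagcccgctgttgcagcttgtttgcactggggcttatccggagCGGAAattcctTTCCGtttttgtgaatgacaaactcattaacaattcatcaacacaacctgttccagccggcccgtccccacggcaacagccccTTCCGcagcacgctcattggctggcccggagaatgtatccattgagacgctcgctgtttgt
SPRY4: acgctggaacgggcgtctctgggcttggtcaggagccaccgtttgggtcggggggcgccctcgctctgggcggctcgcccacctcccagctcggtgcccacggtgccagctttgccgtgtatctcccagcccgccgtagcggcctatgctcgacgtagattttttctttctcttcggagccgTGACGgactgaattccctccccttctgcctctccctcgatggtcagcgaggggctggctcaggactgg
The FGFR3 stretch runs over chr4:1793043-1793292 on the plus strand, the DUSP6 stretch over chr12:89352502-89352751 and the SPRY4 stretch over chr5:142324248-142324497, both on the minus strand. The bases G and C made up 86.8% of the FGFR3 stretch, 65.6% of the SPRY4 stretch and 57.2% of the DUSP6 stretch. DUSP6, itself a textbook target of ERK-driven ETS factors, had 3 CGGAA matches, with first bases at -155, -144 and -61 from the start. SPRY4 had 1 TGACG match, at -68, and FGFR3 had no match to either. CGGAA occurred in 30.3% and TGACG in 21.2% of 35116 RefSeq promoter stretches of the same length. Of the 6 RefSeq entries found for the genes of this report, 2 held CGGAA and 2 held TGACG. An SPRY2 entry, not printed, held both. The AP-1 motif TGANTCA occurred in 6.57% of them and in none of the 3 printed here. The letters do not show that a factor was bound.

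The UTX and MLL4 peaks in the windows lay away from the genes' 5′ ends. In EV no UTX or MLL4 peak fell in any window. With UTX in the cells, UTX peaks lay in 3 of the 8 windows, FGFR3, DUSP4 and DUSP6, at 4 merged sites. For scale, 16.6% of 16308 tiles of 115 kb that held any H3K27ac had a UTX peak in WT or HEAA. MLL4 peaks lay in 2 of the 8 windows, FGFR3 and DUSP6, at 1 merged site each, and in 7.9% of the same tiles. Every one of these sites was inside an H3K27ac region called in all 6 libraries and held no H3K27me3 region in any line. The share of all UTX and MLL4 peaks for which this holds was not computed, so it is not shown to be particular to these windows. None of the 8 genes had a UTX or MLL4 peak in its gene body or within 10 kb of it. The share of all genes with such a peak was not computed.

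FGFR3, which encodes the receptor itself, had the site with the highest fold among the windows in each of the 4 lists that called one there. The window covered chr4:1745001-1861000, and the site lay about 24 kb upstream of the gene's 5′ end, a position known here to about 1 kb. In WT the UTX peak covered chr4:1770442-1770696 with an 11.5-fold enrichment and a −log10 q of 29.1, which ranked it 19 by fold among 2566 peaks of that list. In HEAA the UTX peak covered chr4:1770271-1770674, with a 9.06-fold enrichment and rank 129 of 2855. The wild-type and the mutant protein thus both had a peak at this site.

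The 2 MLL4 peaks at FGFR3 lay on the same stretch. The WT peak covered chr4:1770336-1770651 with 8.66-fold enrichment, rank 60 of 898, and the HEAA peak chr4:1770427-1770725 with 9.96-fold enrichment, rank 52 of 1125. Fold enrichments are the authors' peak caller's values and are not comparable between lists. No MLL4 peak was called there in EV, whose MLL4 list was the shortest.

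The acetylated region around this site ran from -27.8 to -20.8 kb relative to the 5′ end of FGFR3, where negative is upstream (chr4:1767228-1774249), and was the widest H3K27ac region of the window. It was called in EV too, where no UTX or MLL4 peak was. Its called length was 5309 and 4112 bp in EV libraries 1 and 2, 6503 and 4252 bp in WT, and 6075 and 3846 bp in HEAA. The values of the lines overlapped, and in each line library 1 was the longer. H3K4me1 covered 5616 bp of it in EV, 5633 bp in WT and 5823 bp in HEAA.

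**Figure D1:**
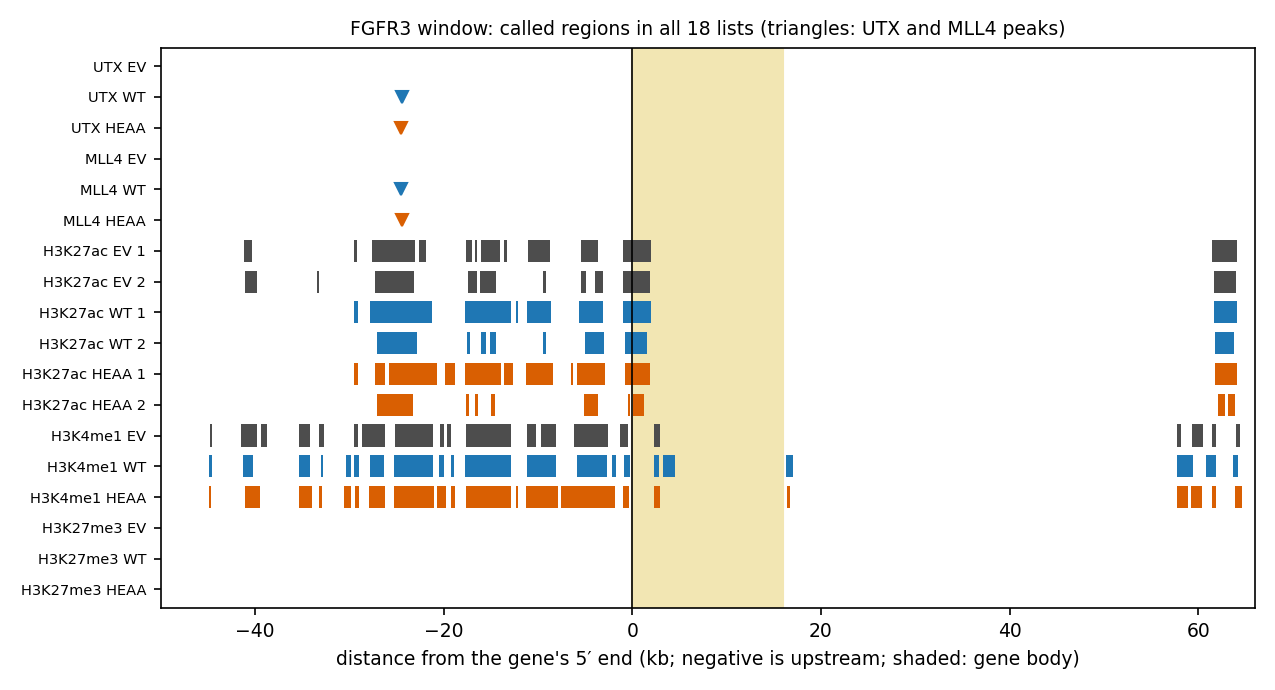
Called regions in the FGFR3 window in each of the 18 lists (rows), by distance from the gene's 5′ end in kb, with negative values upstream, the gene body shaded and triangles for UTX and MLL4 peaks. The 4 UTX and MLL4 peaks of WT and HEAA stack at about -24 kb, inside an acetylated region that all 6 H3K27ac libraries share, and the EV rows hold no triangle.

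Over the whole FGFR3 window, H3K27ac covered 19.4 and 15.1 kb in EV, 22.6 and 12.4 kb in WT, and 23.4 and 9.11 kb in HEAA. The libraries numbered 1 were all above those numbered 2, and the EV values fell between them. The mean was 17.3 ± 3.03 kb in EV (SD, n = 2) and 16.9 ± 7.21 kb in the 4 libraries of the UTX lines (SD, n = 4), a difference well within the spread (exact two-sided permutation test, p = 1). The sign differed between the library numbers: the UTX lines averaged 3.59 kb more than EV among libraries 1 and differed by −4.38 kb among libraries 2.

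Most of that acetylation was upstream of the receptor gene. The 5′ flank was covered by 29.6% and 21.7% in EV, 36.2% and 17.5% in WT, and 38.3% and 13.1% in HEAA. Across the 5′ end itself an H3K27ac region of at most 3039 bp (chr4:1793985-1797023) was called in all 6 libraries. In all 6 libraries the region with the highest fold of the window lay 61.5 to 64.2 kb downstream of that 5′ end, past the gene (chr4:1856509-1859150), with folds from 7.92 to 11.8. In the RefSeq gene order on GRCh38.p14, TACC3 precedes FGFR3 and LETM1 follows it, so both flanks also hold chromatin of other genes.

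The FGFR3 window also held the one merged H3K27ac region called in both EV libraries and in none of the UTX lines. It lay at -41.1 to -39.8 kb (chr4:1753863-1755242) and was weak, with 842 bp at 3.00-fold in EV library 1 and 1334 bp at 4.17-fold in library 2. H3K4me1 was called there in every line, over 1324 bp in EV, 931 bp in WT and 1278 bp in HEAA. Over the genome, 0.909% of merged H3K27ac regions had this pattern.

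DUSP4, a nuclear phosphatase of MAP kinases, had UTX peaks without an MLL4 peak. Its window was chr8:29141001-29258000. Both sites were about 46 kb beyond the 3′ end of the gene and only 3.30 to 3.64 kb inside the window's edge, so they belong to the gene by position alone. At the first, the WT peak was 7.21-fold enriched (rank 342 of 2566) and the HEAA peak 5.64-fold (rank 1117 of 2855). At the second, only WT had a peak, at 4.76-fold (rank 1626). Of all WT UTX peaks, 67.3% overlapped a HEAA peak. The acetylated region around both (chr8:29143330-29147810) was called in all 6 libraries, at 5.33- to 10.4-fold.

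H3K27ac covered 7.05 and 11.8 kb of the DUSP4 window in EV, 8.47 and 11.8 kb in WT, and 10.5 and 7.76 kb in HEAA. The 3 lines overlapped fully (exact two-sided permutation test of EV against the UTX lines, p = 0.867). At the 5′ end of DUSP4 all 6 libraries had a call, of 1626 and 3236 bp in EV, 2519 and 3479 bp in WT, and 2849 and 3257 bp in HEAA. Here the EV library 1 was the shortest and WT library 2 the longest.

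Next to that acetylated 5′ end, DUSP4 carried H3K27me3. In EV its widest region spanned 3471 bp, from -4.27 to -0.803 kb, and shared 263 bp with the acetylated region. In WT 988 bp and in HEAA 1383 bp were called inside the same stretch. Over the whole window the mark covered 6.91 kb in EV, 1.67 kb in WT and 3.58 kb in HEAA, ratios to EV of 0.242 and 0.519, where the whole lists had ratios of 0.704 and 1.05. Both UTX lines were below EV in 50.5% of tiles with H3K27me3 in EV, so this direction was common. The gene body of DUSP4 held none in any line. The widest region of each line had a fold of 2.34 to 2.89, and with 1 list per line the difference has no replicate check.

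**Figure D2:**
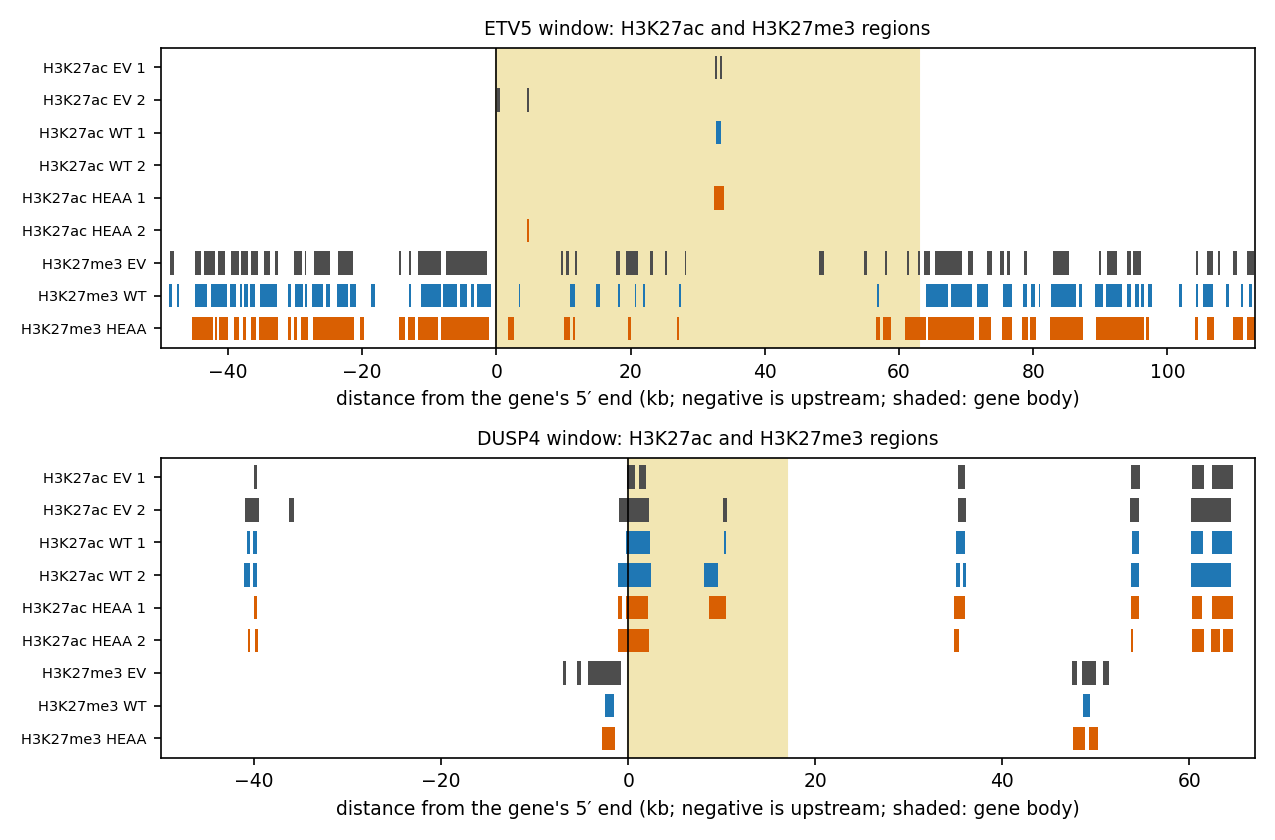
H3K27ac (6 libraries) and H3K27me3 (3 lists) regions in the ETV5 and DUSP4 windows, by distance from the gene's 5′ end in kb, negative upstream, with the gene body shaded. ETV5 shows H3K27me3 in both flanks in every line and almost no H3K27ac, while DUSP4 shows H3K27ac at its 5′ end in all 6 libraries beside an H3K27me3 region of 3471 bp in EV, 988 bp in WT and 1383 bp in HEAA.

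DUSP5, a nuclear phosphatase specific to ERK, had no UTX or MLL4 peak in its window (chr10:112208001-112322000), and no H3K27me3. It had the widest acetylated region at a 5′ end among the 8 genes. The merged region covered chr10:112252298-112264260, 11963 bp from -5.70 kb to 6.26 kb into the gene. All 6 libraries called it, over 8767 and 11963 bp in EV, 8883 and 8887 bp in WT, and 8616 and 8172 bp in HEAA. In each of the 6 libraries it held the highest fold of the DUSP5 window. EV library 2 was the long one, and EV library 1 did not stand apart from the UTX lines.

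Over the window, H3K27ac covered 17.7 and 22.3 kb in EV, 16.7 and 15.9 kb in WT, and 17.1 and 13.8 kb in HEAA at DUSP5. Both EV libraries were above all 4 of the UTX lines. The means were 20.0 ± 3.25 kb (SD, n = 2) and 15.9 ± 1.47 kb (SD, n = 4), a difference of −4.14 kb (exact two-sided permutation test, p = 0.0667, the smallest that 2 against 4 libraries can give). The difference was −0.813 kb among libraries 1 and −7.47 kb among libraries 2, and −1.84 kb without EV library 2. Divided by the length of each list, the groups overlapped, at 20.1 to 31.1 kb in EV and 15.5 to 28.7 kb in the UTX lines per 100 Mb of list (p = 0.467, same exact test).

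In the DUSP5 gene body H3K27ac covered 3.91 and 6.26 kb in EV, and 3.48 to 3.68 kb in the 4 libraries of the UTX lines. The merged region of the window where both EV libraries were longer than all others was downstream of the gene. At 30.1 to 33.1 kb beyond the 5′ end (chr10:112288109-112291103) the called length was 2522 and 2995 bp in EV, 1037 and 1460 bp in WT, and 1792 and 1648 bp in HEAA. All 4 libraries of the UTX lines were shorter than both of EV, though all called the region. H3K4me1 covered 2445 bp of it in EV, 2314 bp in WT and 2084 bp in HEAA. Over the whole DUSP5 window H3K4me1 covered 24.6 kb in EV, 25.3 kb in WT and 25.5 kb in HEAA. The ratios to EV depended on the threshold: they were 1.03 and 1.04 in WT and HEAA here, 0.608 and 0.761 with a minimum −log10 q of 3, and 0.509 and 1.43 with a minimum of 5.

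DUSP6, the cytoplasmic ERK phosphatase whose promoter is printed above, had a weak UTX peak and a weak MLL4 peak that did not come from the same line. The window was chr12:89692001-89796000. In WT a UTX peak at chr12:89764706-89764993 was 3.92-fold enriched (rank 2179 of 2566), and in HEAA an MLL4 peak at chr12:89764595-89764780 was 5.34-fold enriched (rank 888 of 1125). They overlapped each other, with summits at -18.8 and -18.7 kb from the 5′ end. Neither factor had a call there in the other UTX line. Both peaks had a −log10 q just above 5, at 5.16 and 5.21.

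The acetylated region around that DUSP6 site (chr12:89762286-89770731) was the widest of the window and was called in all 6 libraries. It covered 6820 and 7927 bp in EV, 7468 and 6641 bp in WT, and 8252 and 6515 bp in HEAA, and H3K4me1 covered 8104 to 8446 bp of it. At the 5′ end, the region chr12:89743271-89749447 held the window's highest folds in all 6 libraries, from 10.1 to 15.5. Its length was 5926 and 5789 bp in EV, 4915 and 5358 bp in WT, and 6177 and 5340 bp in HEAA. The upstream neighbour in the RefSeq order is POC1B, so the upstream region is not assigned to DUSP6 by anything but distance.

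H3K27ac covered 17.1 and 16.8 kb of the DUSP6 window in EV, 14.9 and 12.5 kb in WT, and 18.8 and 13.5 kb in HEAA. HEAA library 1 was above EV and the other 3 libraries of the UTX lines were below (exact two-sided permutation test, p = 0.4). H3K4me1 was shorter in both UTX lines, at 25.1 kb in EV, 19.3 kb in WT and 22.9 kb in HEAA. Much of that was in the 3′ flank, where H3K4me1 covered 4.44 kb in EV, 0.781 kb in WT and 2.52 kb in HEAA. H3K27me3 was not called in the window in any line.

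SPRY2, a Sprouty inhibitor of receptor tyrosine kinase signalling, had little acetylation beyond its own 5′ end. Its window was chr13:80860001-80965000, and the nearest UTX peak of WT or HEAA was 638 kb outside it. A single region, across the 5′ end (chr13:80912758-80917473), made up all the H3K27ac called there, apart from 2 small regions of HEAA library 1. H3K27ac covered 3.53 and 2.59 kb in EV, 3.82 and 3.56 kb in WT, and 5.70 and 3.01 kb in HEAA. The UTX lines were longer on average by 0.961 kb, and HEAA library 2 lay within the range of EV (exact two-sided permutation test, p = 0.4). The difference was 1.22 kb among libraries 1 and 0.697 kb among libraries 2, and 0.402 kb without HEAA library 1. With a minimum −log10 q of 3, both EV libraries were below all 4, at 2.05 and 2.95 kb against 3.01 to 4.73 kb (p = 0.133, same exact test).

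H3K4me1 covered 3.63 kb of the SPRY2 window in EV, 4.55 kb in WT and 4.77 kb in HEAA. EV was the lowest here but the highest with a minimum −log10 q of 3, where the ratios to EV were 0.569 and 0.596, and with a minimum of 5, where neither UTX line had a call. H3K27me3 covered 4.36, 2.60 and 4.04 kb, mostly in the 5′ flank, and none of it was in the gene body. Of the EV length, 14.4% was called in all 3 lines.

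SPRY4, the other Sprouty gene, had the lowest acetylated length in the UTX lines relative to EV of the 8 genes. The window was chr5:141640001-141755000. H3K27ac covered 5.56 and 7.82 kb in EV, 2.54 and 3.59 kb in WT, and 4.42 and 3.72 kb in HEAA. Both EV libraries were above all 4 of the UTX lines, and the WT libraries were the lowest. The means were 6.69 ± 1.60 kb (SD, n = 2) and 3.57 ± 0.775 kb (SD, n = 4), a ratio of 0.533 (exact two-sided permutation test, p = 0.0667, again the smallest possible). The difference was −2.07 kb among libraries 1 and −4.17 kb among libraries 2, and −1.99 kb without EV library 2.

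Per 100 Mb of list, the SPRY4 groups overlapped, at 6.31 to 10.9 kb in EV and 2.65 to 7.70 kb in the UTX lines (exact two-sided permutation test, p = 0.267). They also overlapped when the window was narrowed to about 25 kb on each side, where the difference was −1.02 kb. WT and HEAA at SPRY4 did not overlap, at 3.07 ± 0.742 and 4.07 ± 0.496 kb (SD, n = 2 each), but 2 against 2 libraries cannot give less than the p of 0.333 found (exact two-sided permutation test).

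The SPRY4 acetylation was made up of 3 regions, apart from 1141 bp in the 3′ flank in EV library 2. The one farthest upstream, at -39.6 to -37.1 kb (chr5:141742120-141744555), was called over 2341 and 2369 bp in EV, 1164 bp in WT library 1, 2010 and 266 bp in HEAA, and not at all in WT library 2. It was the region of this window where both EV libraries exceeded all others. The region across the 5′ end (chr5:141703475-141706441) covered 1981 and 2967 bp in EV, 277 and 2303 bp in WT, and 1150 and 2098 bp in HEAA. There EV library 1 was shorter than WT library 2 and HEAA library 2.

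The third SPRY4 region, at -32.3 to -30.9 kb (chr5:141735850-141737317), barely differed in length, from 1100 to 1354 bp. In each of the 6 libraries it had the highest fold of the SPRY4 window. It was the one region called in all 6 libraries, of 24, that lacked H3K4me1 in a line: WT had none, EV 529 bp and HEAA 547 bp. H3K4me1 over the whole SPRY4 window was 10.7 kb in EV, 6.14 kb in WT and 8.07 kb in HEAA, ratios to EV of 0.573 and 0.752 where the whole lists had 1.14 and 1.18. H3K4me1 and H3K27ac were thus both shortest in WT here, in lists that are separate libraries.

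**Figure D3:**
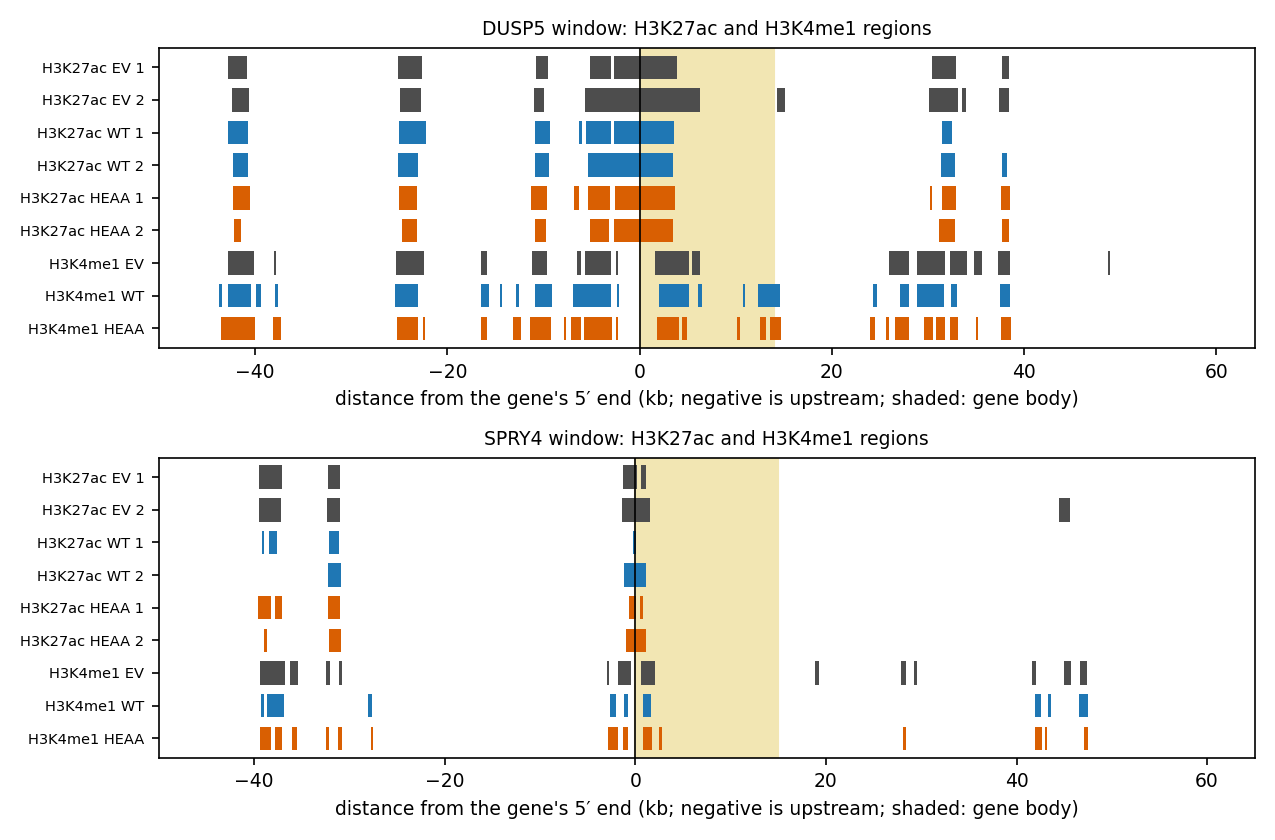
H3K27ac (6 libraries) and H3K4me1 (3 lists) regions in the DUSP5 and SPRY4 windows, by distance from the gene's 5′ end in kb, negative upstream, with the gene body shaded. DUSP5 keeps a wide region at its 5′ end in every library and differs near +30 kb (2522 and 2995 bp in EV against 1037 to 1792 bp), and SPRY4 differs near -38 kb, where WT library 2 has no call.

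ETV4, an ETS factor of the PEA3 group, had its acetylation spread over several modest regions. The window was chr17:41555001-41674000. H3K27ac covered 8.07 and 10.3 kb in EV, 8.43 and 5.64 kb in WT, and 9.22 and 3.58 kb in HEAA. Libraries 1 of the UTX lines lay between the EV values and libraries 2 below them (exact two-sided permutation test, p = 0.333). With all lists shortened to the same number of regions, both EV libraries were above all 4, at 7.22 and 10.3 kb against 3.58 to 6.68 kb (p = 0.0667, same exact test). At the 5′ end (chr17:41621505-41624238) 5 of 6 libraries had a call, with 1165 and 2734 bp in EV, none in WT library 1, 1526 bp in WT library 2, and 630 and 1538 bp in HEAA.

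The widest acetylated region of the ETV4 window was 61.6 to 64.8 kb beyond its 5′ end (chr17:41559189-41562375), on the side of DHX8, the next gene in the RefSeq order. No UTX or MLL4 peak was inside the window, but UTX peaks lay 8.29 kb outside it in WT (3.99-fold) and 8.26 kb in HEAA (4.77-fold), and an MLL4 peak 8.33 kb outside in HEAA (7.79-fold). These were the calls nearest to the rule's edge from outside, and the DUSP4 peaks those nearest from inside. The next were at SPRY4, 20.9 kb outside in WT, and at DUSP5, 33.2 kb outside in WT and 33.3 kb in HEAA. H3K27me3 covered 1.56 kb of the ETV4 window in EV and none in the UTX lines.

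ETV5, the other PEA3 factor, had the least H3K27ac and the most H3K27me3 of the 8 windows in every list. Its window, chr3:185714001-185877000, held almost no H3K27ac: 0.416 and 0.782 kb in EV, 0.822 kb and none in WT, and 1.49 and 0.234 kb in HEAA. No acetylated region there was called in more than 3 libraries, all of them lay in the gene body, and a call within 1 kb of the 5′ end was made in EV library 2 alone. The lines did not separate (exact two-sided permutation test, p = 0.933). The widest region, 32.5 to 34.0 kb into the gene (chr3:185793042-185794532), was called in the 3 libraries numbered 1. In EV library 2 the region with the highest fold was the one at 4.59 to 4.94 kb (chr3:185822060-185822407), which was also the one call of HEAA library 2.

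H3K27me3 covered 48.8 kb of the ETV5 window in EV, 53.2 kb in WT and 66.8 kb in HEAA, which is 30.0%, 32.7% and 41.0% of it. It was the one window of 8 with over 5% covered in every line, a state found in 26.5% of 26398 tiles over the genome and 27.2% of those with any H3K27ac. As high a cover as at ETV5 in every line was found in 3.05% of the tiles. Of the EV length, 60.9% was called in all 3 lines, a stretch of 29.8 kb in total. The mark lay in both flanks and little in the gene: it covered 50.3%, 52.3% and 60.9% of the 5′ flank in EV, WT and HEAA, 35.0%, 48.4% and 59.4% of the 3′ flank, and 9.87%, 4.58% and 10.7% of the gene body.

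The widest H3K27me3 region at ETV5 in EV spanned 6148 bp, from -7.52 to -1.37 kb (chr3:185828371-185834518), and in HEAA 7230 bp over nearly the same stretch (chr3:185828038-185835267). In WT the widest was elsewhere, 3679 bp in the 3′ flank (chr3:185740689-185744367). The window's ratio to EV was 1.09 in WT and 1.37 in HEAA, and those of the whole lists were 0.704 and 1.05. Both UTX lines were above EV at ETV5, which holds for 15.9% of tiles with H3K27me3 in EV, and both below EV for 50.5%. With a minimum −log10 q of 3 the ratios at ETV5 were 0.376 and 2.13, and with about 10 kb on each side 0.904 and 1.21, so the direction for WT turned under both. UTX and MLL4 peaks of WT and HEAA were at least 438 kb from the window.

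H3K4me1 covered 5.78 kb of the ETV5 window in EV, 5.57 kb in WT and 6.27 kb in HEAA, and was called within 1 kb of the 5′ end in every line. With a minimum −log10 q of 3 its ratios to EV were 2.59 and 2.21.

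**Figure D4:**
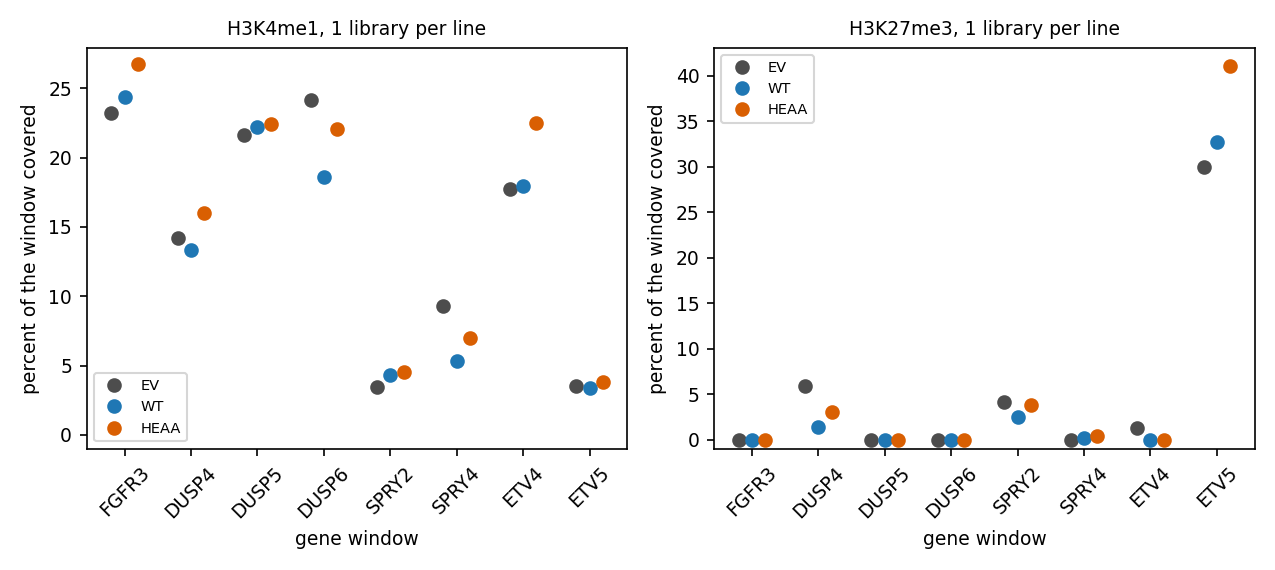
Percent of each gene window covered by H3K4me1 regions (left) and H3K27me3 regions (right), 1 point per line, each from 1 list without replicate. H3K4me1 is at 17.7% or more at FGFR3, DUSP5, DUSP6 and ETV4 in every line and under 5% at SPRY2 and ETV5, and H3K27me3 is above 29% at ETV5 alone.

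An H3K27ac call within 1 kb of the 5′ end was made in all 6 libraries for FGFR3, DUSP4, DUSP5, DUSP6, SPRY2 and SPRY4. For ETV4 it was made in 5 libraries and for ETV5 in 1. The share over the 5′ ends of all genes was not computed. The windows held 60 merged H3K27ac regions. Of these, 24 were called in all 6 libraries, where the share over the genome was 31.8%, and 23 of the 24 met H3K4me1 in every line, as did 91.8% of such regions over the genome. None was called in all 4 libraries of the UTX lines and neither EV library (0.54% over the genome), and 1 had the reverse pattern (0.909% over the genome). A further 21 were called in 1 library only, a pattern whose share over the genome was not computed. Both EV libraries had a longer call than all others at 5 of the 60 regions, beside 5.29% of merged regions over the genome, and a shorter one at none, beside 1.68%. The 5 were 1 each at FGFR3, DUSP4, DUSP5, SPRY4 and ETV4. At DUSP4 (chr8:29153311-29154300) the EV calls were 891 and 975 bp, against 228 to 860 bp in the UTX lines. At ETV4 (chr17:41613401-41615090) they were 1419 and 1690 bp, against 211 to 1329 bp.

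In 2 of the 8 windows, DUSP5 and SPRY4, both EV libraries were above all 4 of the UTX lines, a pattern found in 4.68% of tiles. In none of the 8 was the reverse seen, found in 2.36% of tiles. Both counts hold for the main setting only. With a minimum −log10 q of 3 or 5, or lists of equal length, EV was above all 4 at ETV4 and below all 4 at SPRY2. With lists of equal length EV was also above all 4 at DUSP6. The groups overlapped at DUSP5 with a minimum of 5 or about 10 kb on each side. They overlapped at SPRY4 with about 25 or 10 kb, and at both genes per 100 Mb of list. In each contrast 8 windows were tested, and with this number of libraries none could pass 0.05. The sign of the difference was the same for both library numbers in 4 windows: the UTX lines were lower in DUSP5, DUSP6 and SPRY4 and higher in SPRY2. In the other 4, FGFR3, DUSP4, ETV4 and ETV5, the signs were opposite. The share of tiles with the same sign for both library numbers was not computed. The median ratio of the UTX lines to EV was 0.929 over the windows and 0.967 over 14378 tiles with H3K27ac in EV.

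**Figure D5:**
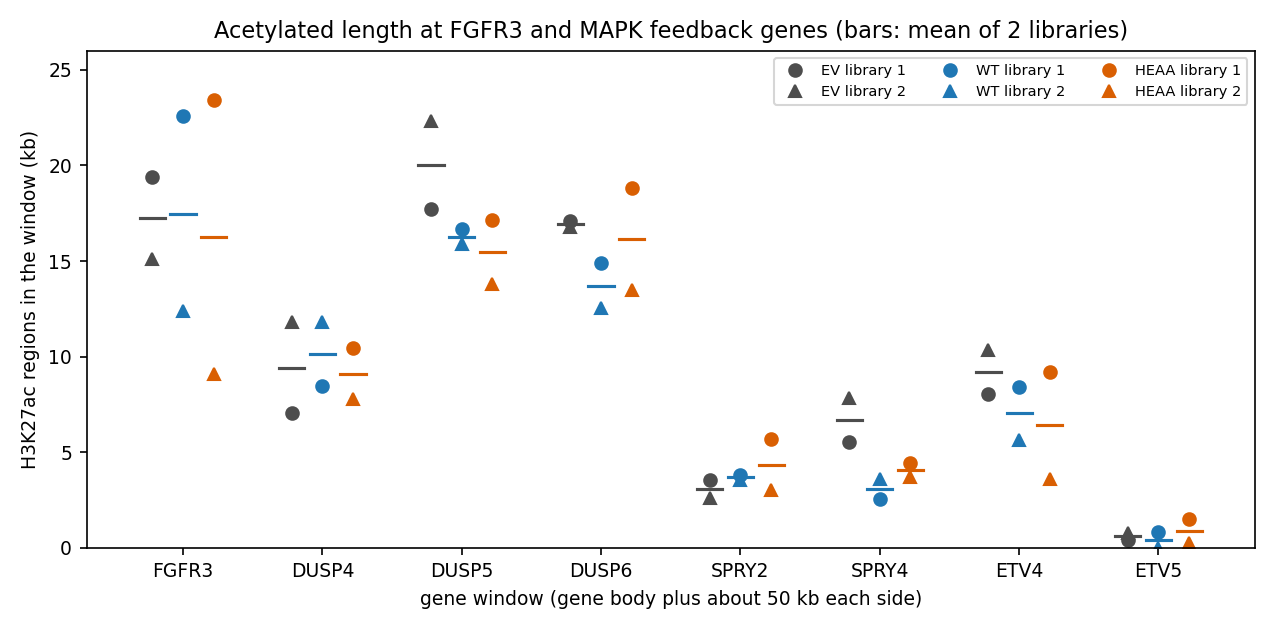
Length of H3K27ac regions in each gene window, in kb, by library (circles for library 1, triangles for library 2, bars for the mean of the 2 libraries of a line). Both EV points lie above all WT and HEAA points at DUSP5 and SPRY4, though the EV points at DUSP5 lie far apart (17.7 and 22.3 kb). At FGFR3 and DUSP4 the gap between library 1 and library 2 exceeds the gaps between line means in every line.

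Between WT and HEAA, the libraries did not overlap in acetylated length at SPRY4 and overlapped in the other 7 windows. The share of tiles where WT and HEAA did not overlap was not computed, so the SPRY4 result has no background to be set against. The exact two-sided permutation p at SPRY4 was 0.333, the smallest that 2 against 2 libraries can give, so this design cannot tell whether the substitutions in UTX made a difference. Summed over the windows, H3K27ac covered 83.2 ± 6.12 kb in EV (SD, n = 2) and 72.2 ± 15.6 kb in the UTX lines (SD, n = 4).

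H3K4me1 was longer than EV in both UTX lines in 4 windows, FGFR3, DUSP5, SPRY2 and ETV4, beside 59.3% of tiles. It was shorter in both in DUSP6 and SPRY4, beside 21.3% of tiles. The first group did not hold its direction: with a minimum −log10 q of 5 the ratios to EV in WT and HEAA were 0.834 and 0.917 at FGFR3 and 0.478 and 0.650 at ETV4, and per 100 Mb of list they were 0.925 and 0.974 at FGFR3 and 0.906 and 0.875 at DUSP5. DUSP6 and SPRY4 stayed below EV in both lines under every alternative that gave a value. At FGFR3 it covered 26.9, 28.3 and 31.0 kb in EV, WT and HEAA, and at ETV4 21.1, 21.4 and 26.8 kb. H3K27me3 was called in no line at FGFR3, DUSP5 and DUSP6, 3 of 8 windows, beside 27.5% of tiles with H3K27ac. At SPRY4 it covered 0.238 kb in WT, 0.487 kb in HEAA and none in EV.

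By percent of the window covered in the 12 histone lists, the most alike pair was DUSP5 and DUSP6 (Euclidean distance 6.79 percentage points), then SPRY2 and SPRY4 (10.1), FGFR3 and DUSP6 (11.2), FGFR3 and DUSP5 (12.2), and DUSP4 and ETV4 (12.4). ETV5 was far from every other window, with SPRY2 nearest at 55.0. The receptor and the ERK phosphatases DUSP5 and DUSP6 were thus alike in being rich in H3K27ac and H3K4me1 with no H3K27me3 called, the Sprouty genes in holding less H3K27ac and H3K4me1 than those, and ETV4 and ETV5 were 67.5 apart.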

How the data were processed

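ChIP-seq was done on 3 stable UMUC1 lines (EV, WT, HEAA). The 24 samples comprised 18 with peaks and 6 inputs, the latter not analysed here. Histone ChIP used sonicated chromatin and UTX and MLL4 ChIP chromatin cut first by micrococcal nuclease, per the labels' protocols. MACS2 and the builds hg19 and GRCh37 are named in the submitters' processing notes. Not given in the sources used here: version, aligner and read filters. The deposited fold enrichment of a peak is a linear ratio from the authors' peak caller. The authors also deposited −log10 p-values and q-values, a score, which was not used, and, for narrow peaks, a summit offset. Lists lengthen with depth, which is unknown, so lengths were also compared per 100 Mb of list and with lists of equal length.

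Window edges were read from the selection rule, which gives gene bodies to about 1 kb; positions count from 1. Strand came from the RefSeq promoter table for FGFR3, DUSP6, SPRY2 and SPRY4 and from background knowledge for the other genes. Length covered per window was computed with pandas 2.3.3 and NumPy 2.4.6 under Python 3.11.15, and plotted with matplotlib 3.10.9. The background is 26398 tiles of 115 kb over the genome, 16308 with any H3K27ac. H3K27ac was compared with exact two-sided permutation tests over libraries, 15 arrangements for 2 against 4 and 6 for 2 against 2, with unadjusted p-values; other marks had no test. Overlap and coverage code was tested on simulated data.

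All 8 genes are named. Regions named are every UTX and MLL4 peak, the widest and the highest-fold H3K27ac region of a window, regions called in EV only or in the UTX lines only, and the widest H3K27me3 regions where the mark covers over 5% of a window. Regions across 5′ ends and those where EV stood apart, and the printed promoters, were added after values were seen: the rule for promoters, a UTX or MLL4 peak within 10 kb of the gene, chose none. Of the 8 genes, 4 matched the RefSeq promoter table, with 6 entries; the motifs were searched on both strands and do not overlap one another. Likeness is the Euclidean distance of the percent covered over the 12 histone lists, among the 8 windows only. Lists of cell type markers and of other genes of the pathway were not looked up, since an hg19 annotation was not used here. The members and lists were chosen with earlier results of these data known. Alternatives covered the q threshold, window width, overlap rule, list length, scale, replicate block and each library left out.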

Additional observations from a re-analysis of the deposited data

How the results depend on the processing

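Depth limits every list: a region absent from a list may be a weak one. The UTX peak sites numbered 4, but 2 with windows of about 25 kb on each side and 0 with about 10 kb, since no peak lies near a gene; the MLL4 sites went from 2 to 0 with about 10 kb. Other thresholds, overlap rules and list lengths left these counts at 4 and 2. H3K27ac regions called in all 6 libraries numbered 24, and 12 and 15 with a minimum −log10 q of 5 and 3, and 15 and 9 with about 25 and 10 kb on each side. The EV-only region was lost (0) with a minimum −log10 q of 3, with about 25 or 10 kb on each side and with lists of equal length; with 1 library per line there were 12 EV-only regions without replicate 1 and 3 without replicate 2. Regions of the UTX lines only went from 0 to 3 without replicate 2.

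The H3K27ac length summed over the windows differed by −10.9 kb between the UTX lines and EV, and by −27.5 to 5.58 kb when libraries were left out, the extremes being without replicate 1 and without replicate 2. WT minus HEAA, −0.859 kb, was 1.09 kb with a minimum −log10 q of 5 and 2.16 kb per 100 Mb of list, and ran from −12.4 to 10.7 kb without a replicate number. At FGFR3 the difference of −0.392 kb turned to 1.46 and 0.246 kb with about 25 and 10 kb on each side, to 0.188 kb with lists of equal length, and ran from −4.38 to 3.59 kb when libraries were left out, positive without replicate 2, EV replicate 1 (1.75), WT replicate 2 (1.11) or HEAA replicate 2 (2.19). At DUSP4 the 0.206 kb turned to −0.712 kb with a minimum −log10 q of 3, to −0.297 kb with equal lists, and ran from −2.17 to 2.58 kb when libraries were left out, negative without replicate 1 (−2.00), EV replicate 1, WT replicate 2 (−0.526) or HEAA replicate 1 (−0.072). At ETV4 the −2.48 kb ran from −5.72 kb without replicate 1 to 0.757 kb without replicate 2, the one removal that turned it. At ETV5 the 0.0378 kb turned to −0.174 and −0.226 kb with a minimum −log10 q of 5 and 3, to −0.168 kb with equal lists, to −0.109 kb per 100 Mb of list, and ran from −0.665 to 0.741 kb when libraries were left out, negative without replicate 1, EV replicate 1 (−0.145), WT replicate 1 (−0.024) or HEAA replicate 1 (−0.247). The cause of these turns was not tested. DUSP5, DUSP6, SPRY2 and SPRY4 kept their sign under every alternative run that could change it, which the replicate block could not. DUSP5 groups overlapped with a minimum −log10 q of 5 and with about 10 kb on each side. DUSP6 had both EV libraries above all others with lists of equal length (p = 0.133, exact permutation test).

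With the replicate number as a block, the differences are unchanged (−10.9 kb in sum, −0.859 kb for WT minus HEAA). The exact permutation p at DUSP5 and SPRY4 is then 0.111, the smallest that the blocked test can give. Deviations of same-numbered libraries from their line means correlated at 0.710, 0.649 and 0.896 across 16308 tiles, but with 2 numbers the libraries were not treated as pairs.

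For H3K27me3, the ratio to EV over the windows was 0.937 in WT and 1.22 in HEAA, and 0.362 and 2.05 with a minimum −log10 q of 3. At DUSP4 it was 0 in both with that minimum. For H3K4me1, the summed ratios of 0.939 in WT and 1.07 in HEAA were 0.654 and 0.864 with a minimum −log10 q of 5, and the ratios at DUSP4 went from 0.943 and 1.13 to 0.284 and 0.386. Where EV was 0 under a threshold, no ratio could be given. Of the single-gene values under the alternatives, 22 H3K27ac differences changed sign and 21 ratios of the other marks moved past a set fold limit. The other 201 kept their sign, for H3K27ac, or stayed within that limit, for the ratios. They include the H3K27ac values under the replicate block, which changes the p alone and so could not change a sign. A ratio within the limit could still pass from above EV to below it, as H3K27me3 at ETV5 in WT did.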
